A study of Mus musculus with 6 samples.

Results

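The smooth muscle and pericyte genes described here were 10 genes, taken by symbol from the 54309 genes that the transcript tables list. Of these, 6 encode parts of the contractile apparatus of smooth muscle (Acta2, Myh11, Tagln, Cnn1, Lmod1 and Smtn) and 4 are commonly used to mark pericytes or mural cells (Rgs5, Abcc9, Cspg4 and Mcam). All 10 were among the 19129 genes that passed the filter on low counts. The RNA came from C57BL/6 mice aged 6 to 8 weeks, from the distal stretch of the sciatic nerve on the left side, collected 24 h after surgery, with 3 libraries from females and 3 from males. Each library pooled nerves of 2 animals. All 6 libraries carry axotomy, the cutting of the nerve, as their treatment label, while the written procedure speaks of exposing it and mentions no cut, so whether these nerves were cut cannot be told from the labels. The libraries held 55272138 to 77610593 estimated reads.

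Mural cells wrap the blood vessels of the nerve. Vascular smooth muscle surrounds arteries and arterioles and contracts by smooth muscle actin and myosin, and pericytes sit in the basement membrane of capillaries. Serum response factor (SRF), with the coactivator myocardin, drives most contractile genes through a short DNA element called the CArG box. Several of the genes are not private to mural cells. Fibroblasts and myofibroblasts can express Acta2 and Tagln, endothelial cells can express Mcam, and glial progenitors express Cspg4.

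Levels were compared between genes as TPM, a unit that corrects for transcript length and library size, with the values of a gene's transcripts added up. Tagln, which encodes the actin-binding protein transgelin (SM22 alpha), was the most abundant of the 10 at 215 ± 33.7 TPM (mean ± SD over 6 libraries). Acta2, the smooth muscle alpha-actin, followed at 102 ± 15 TPM. Smtn, which encodes the actin-associated protein smoothelin, stood at 79.8 ± 18.9 TPM. The ranges of Acta2 and Smtn overlapped, and Acta2 was the higher of this pair in 4 of 6 libraries. Mcam, an adhesion molecule of vessel walls, was at 51.9 ± 4.32 TPM and Rgs5, a regulator of G protein signalling typical of pericytes, at 37.3 ± 4.13 TPM. Cspg4, the NG2 proteoglycan, was at 10.1 ± 0.763 TPM. Abcc9, the sulfonylurea receptor subunit of vascular potassium channels, was at 5.57 ± 1.62 TPM. Its range overlapped that of Myh11, the smooth muscle myosin heavy chain, at 4.81 ± 1.98 TPM. Cnn1, which encodes calponin, was at 2.03 ± 1.08 TPM and Lmod1, the actin-nucleating protein leiomodin, at 1.0 ± 0.326 TPM; each was below its predecessor in all 6 libraries although the ranges overlapped.

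**Figure D1:**
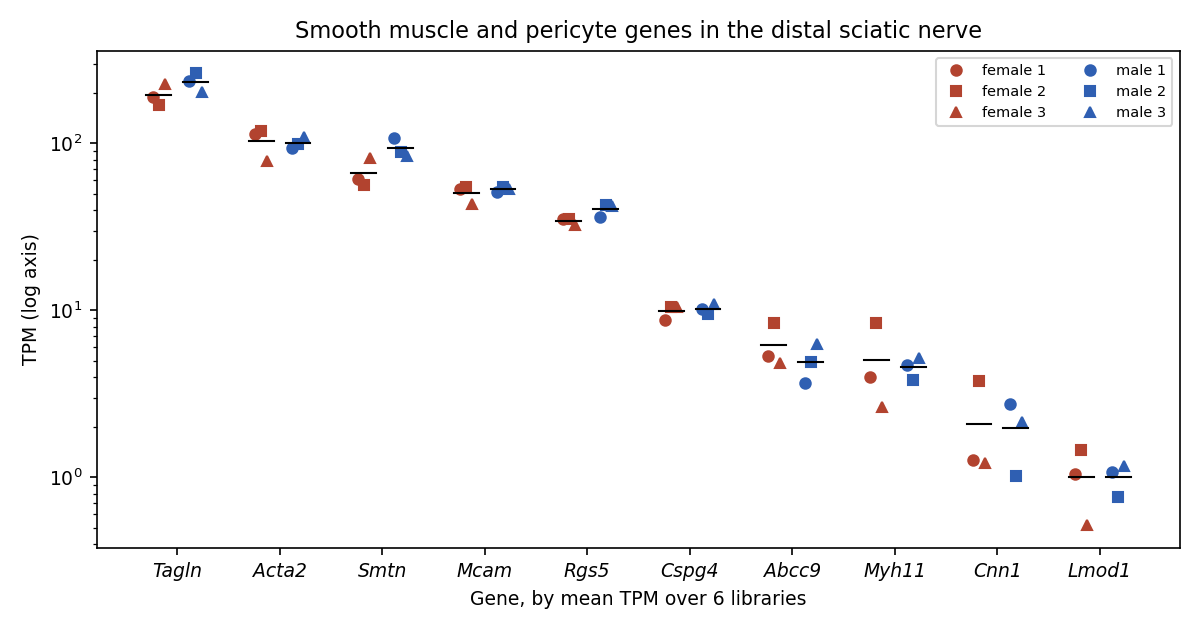
TPM of the 10 genes (log axis) in each library, female libraries left of male ones, with a black bar at the mean of each sex. The genes span mean levels of 1.0 TPM (Lmod1) to 215 TPM (Tagln), and the sexes are apart without overlap for Smtn and Rgs5 only.

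Myh11, Cnn1 and Lmod1, the genes of the list most restricted to smooth muscle, thus had the 3 lowest mean TPM values, while Tagln and Smtn were far above them. The place of Myh11 below Abcc9 is not firm, as Abcc9 was the higher in 4 of 6 libraries. In CPM, which scales for library size but not for length, Myh11 averaged 28.3 and Abcc9 24.1. The ratio of Smtn to Myh11 in TPM was 15.2, 6.68 and 30.8 in females 1 to 3, against 22.8, 23.2 and 16.1 in males 1 to 3. All 10 mural markers were detected in every library, but the contractile genes did not hold 1 common ratio. Reads behind the rare members were few: Cnn1 had 84 to 320 estimated reads per library and Lmod1 129 to 327, against 10342 to 18272 for Tagln.

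No member differed between female and male nerves at an adjusted p under 0.05 in edgeR's quasi-likelihood test, in which 0.11% of all genes passed, 0.0157% higher and 0.0941% lower in female nerves. At an unadjusted p under 0.05, Smtn and Rgs5 passed, where 14.6% of all genes did. DESeq2 called 1 member, Smtn (adjusted p = 0.0276), lower in female nerves, where it called 5.28% of its tested genes in all and 3.87% in that direction. The median log2 fold change (female minus male) was 0.02 for the 6 contractile genes and -0.04 for the 4 pericyte genes, beside 0.02 for all genes tested. Of the contractile genes 3 were below 0 and 3 above, and of the pericyte genes 2 and 2. Libraries of the sexes were separated without overlap for 2 of the 10 members, Smtn and Rgs5, both lower in female nerves, where 11.5% of all genes were separated in that direction, 9.65% in the other and 21.2% in either. In bulk tissue, fewer cells of a type and less RNA per cell cannot be told apart.

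**Figure D2:**
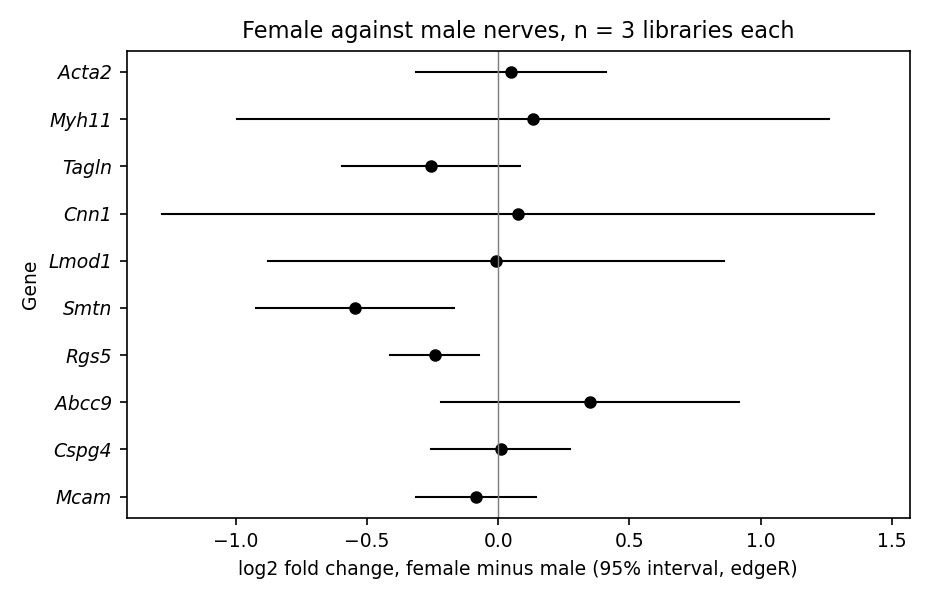
Log2 fold change of each gene, female minus male, from edgeR with its 95% interval (n = 3 libraries per sex). Only the intervals of Smtn (-0.92 to -0.17) and Rgs5 (-0.41 to -0.07) leave out 0, and neither passed the adjusted threshold.

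Smtn was at 60.9, 56.4 and 81.2 TPM in females 1 to 3, against 107.7, 89.0 and 83.9 TPM in males 1 to 3. Every female library was below every male library, with female 2 the lowest and male 1 the highest of the 6. Its log2 fold change was -0.54 (SE 0.16, edgeR adjusted p = 0.215), and -0.32 without female 2 and male 1. Tagln was at 190, 170 and 228 TPM in females 1 to 3, against 237, 263 and 203 TPM in males 1 to 3. Its lowest libraries were females 1 and 2 and its highest males 1 and 2, and the groups overlapped through female 3 and male 3. The log2 fold change was -0.26 (SE 0.15, edgeR adjusted p = 0.474).

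Summed over the 6 contractile genes, the level was 370, 360 and 391 TPM in the female libraries, against 447, 456 and 404 TPM in the male libraries. The gap lay in Tagln and Smtn, which summed to 251, 227 and 309 TPM in females 1 to 3, against 344, 352 and 287 TPM in males 1 to 3. The other 4 together were at 119, 133 and 82.3 TPM in females 1 to 3, against 103, 104 and 118 TPM in males 1 to 3, with full overlap of the sexes. A qualification applies to Tagln: 67.9% of its annotated exon bases (GENCODE M21) lie opposite exons of Pcsk7 or Gm48529 on the other strand, and the sources do not say if quantification took strand into account. Pcsk7 itself, a proprotein convertase gene, was at 14.5 to 20.1 TPM over the 6 libraries. For Smtn 16.3% of exon bases are overlapped in the same way.

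Acta2 was at 113, 119 and 77.9 TPM in females 1 to 3, against 94.3, 98.6 and 109 TPM in males 1 to 3. The female libraries held both the lowest and the highest value. Its log2 fold change was 0.05 (SE 0.15, 95% interval -0.31 to 0.41). Myh11 was at 4.00, 8.43 and 2.64 TPM in females 1 to 3, against 4.73, 3.83 and 5.21 TPM in males 1 to 3. Again females 2 and 3 were the extremes, here 3.20 times apart, and the log2 fold change of 0.13 had a 95% interval of -0.99 to 1.26. Without female 2 it was -0.50, and without female 3 it was 0.44.

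Cnn1 was at 1.27, 3.78 and 1.21 TPM in females 1 to 3, against 2.73, 1.02 and 2.15 TPM in males 1 to 3. Female 2 was the highest library and male 1 the next. The log2 fold change was 0.08 (SE 0.56), and -0.74 without female 2. Lmod1 was at 1.04, 1.45 and 0.517 TPM in females 1 to 3, against 1.07, 0.766 and 1.17 TPM in males 1 to 3. Its extremes were the same female libraries as for Acta2 and Myh11, and its log2 fold change was -0.01 (SE 0.37). The 95% interval was -1.28 to 1.43 for Cnn1 and -0.88 to 0.86 for Lmod1; differences within these bounds were not resolved with 3 libraries per sex.

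Among the pericyte genes, Rgs5 was at 35.4, 35.3 and 32.5 TPM in females 1 to 3, against 36.0, 42.7 and 42.1 TPM in males 1 to 3. Every female library was below every male library, though female 1 and male 1 were close. Its log2 fold change was -0.24 (SE 0.07, edgeR adjusted p = 0.217), and -0.27 without female 2 and male 1. Abcc9 was at 5.36, 8.40 and 4.85 TPM in females 1 to 3, against 3.66, 4.88 and 6.27 TPM in males 1 to 3. Female 2 was the highest and male 1 the lowest library, the reverse of the order seen for Smtn. The log2 fold change was 0.35 (SE 0.24) and -0.05 without those 2 libraries.

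Cspg4 was at 8.80, 10.5 and 10.5 TPM in females 1 to 3, against 10.2, 9.51 and 10.8 TPM in males 1 to 3. Mcam was at 53.7, 55.1 and 43.5 TPM in females 1 to 3, against 51.3, 54.7 and 53.2 TPM in males 1 to 3. In TPM these were the steadiest members, with a coefficient of variation over 6 libraries of 7.58% for Cspg4 and 8.32% for Mcam, against 53.4% for Cnn1 and 41.3% for Myh11. In CPM it was 8.70% for Mcam, 10.51% for Rgs5 and 10.54% for Cspg4. The log2 fold change was 0.01 for Cspg4 (95% interval -0.26 to 0.27) and -0.08 for Mcam (-0.31 to 0.14).

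Across the 6 libraries, the 10 genes did not co-vary as one group. Of the 45 pairs of genes, 27 had a positive and 18 a negative Pearson r of log2 CPM, with a median of 0.18. Within the contractile genes the median over 15 pairs was -0.05, and 0.14 without female 2 and male 1. Acta2, Myh11, Cnn1 and Lmod1 formed 6 pairs that were all positive, from 0.47 to 0.93 with a median of 0.84. With all genes tested, the median r of each of these 4 genes was -0.04 to -0.02. The 8 pairs of these 4 genes with Tagln or Smtn were all negative, from -0.58 to -0.05. The 4 genes were grouped after their values had been seen, so both patterns follow in part from that choice. Neither pattern held in full when libraries were left out. Without female 2 and male 1 the medians were 0.75 and -0.47, but Acta2 and Cnn1 had r = 0.20 and Cnn1 and Smtn 0.14. Without females 3 and 2, the farthest libraries on Acta2, Acta2 had r = -0.32 with Myh11 and -0.38 with Cnn1. These 2 subsets were drawn after the correlations had been seen. Each sex has 3 libraries, too few for a correlation within 1 sex, but r was also computed after the mean of each sex had been removed. Smtn and Rgs5, both lower in female nerves, then had r = -0.50, against 0.56 before, and Tagln and Rgs5 had 0.005, against 0.50 before.

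**Figure D3:**
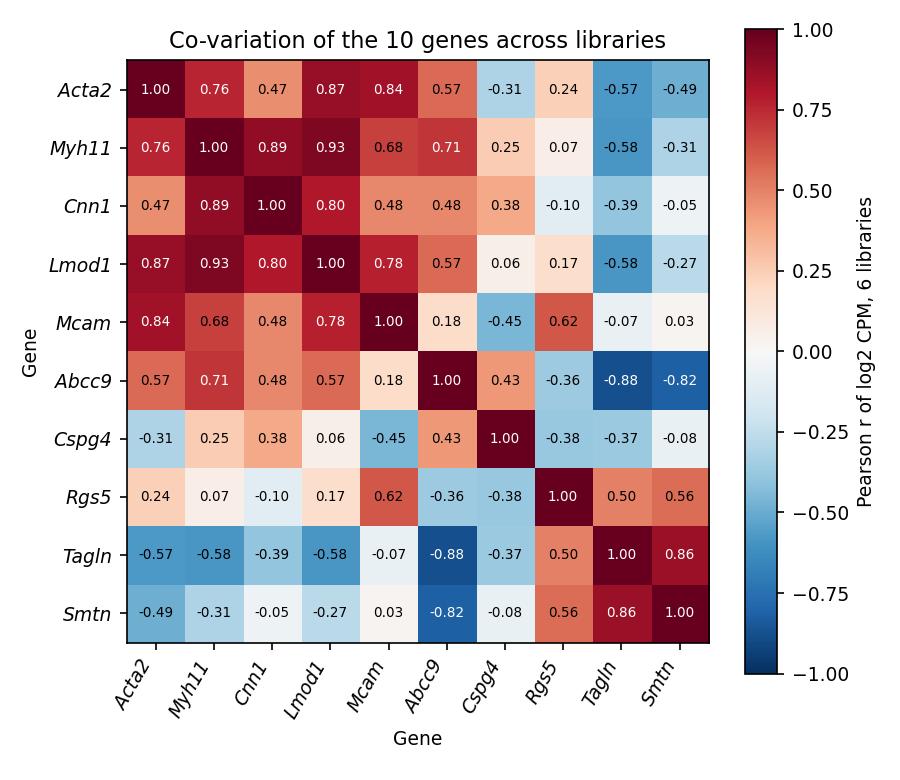
Pearson r of log2 CPM over the 6 libraries for each pair of genes. With all 6 libraries, Acta2, Myh11, Cnn1 and Lmod1 are positive with each other (0.47 to 0.93). Tagln and Smtn are positive with each other (0.86) and negative with those 4, which were grouped after their values were seen.

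Myh11 and Lmod1 were the closest pair, with r = 0.93 and rho = 0.94 (exact permutation p = 0.00833 and 0.0167, two-sided, over 720 orders of the libraries). Of all genes tested, 0.256% followed Myh11 at least as closely as Lmod1 did. Leaving out females 2 and 3, the farthest libraries on Myh11, r was 0.84. Myh11 and Cnn1 had r = 0.89 and rho = 0.89 (exact permutation p = 0.00972 and 0.0333), and r = 0.90 without those libraries. Without female 2 and male 1, r of Myh11 was 0.74 with Cnn1 and 0.95 with Lmod1. Acta2 and Lmod1 had r = 0.87 and rho = 0.77 (exact permutation p = 0.0403 and 0.103), but r = 0.24 without females 2 and 3, so this relation rests on them. Adjusted over all genes tested for the same gene, none of the 45 pairs passed, and 7 had an unadjusted p under 0.05.

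Tagln and Smtn, the other contractile pair, had r = 0.86 and rho = 0.89 (exact permutation p = 0.0278 and 0.0333), and r = 0.82 without male 2 and female 2. Smtn was however a gene that many others resembled: 11.3% of all genes tested had r over 0.8 with it, against 2.69% for Myh11. Abcc9 went against this pair, with r = -0.88 with Tagln (rho = -0.89, exact permutation p = 0.0125 and 0.0333) and -0.97 without male 2 and female 2. With Smtn its r was -0.82 (rho = -0.83, exact permutation p = 0.0458 and 0.0583), and -0.43 without male 1 and female 2, so that value rests in large part on those libraries. Of the 6 pairs of pericyte genes 3 were positive, with a median r of -0.09, and of 0.17 without female 2 and male 1. Rgs5 and Abcc9 had r = -0.36 (rho = -0.31, exact permutation p = 0.504 and 0.564), which became -0.80 without female 3 and male 2, 0.13 without female 2 and male 1 and 0.14 after the sex means were removed, so its sign was not stable.

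**Figure D4:**
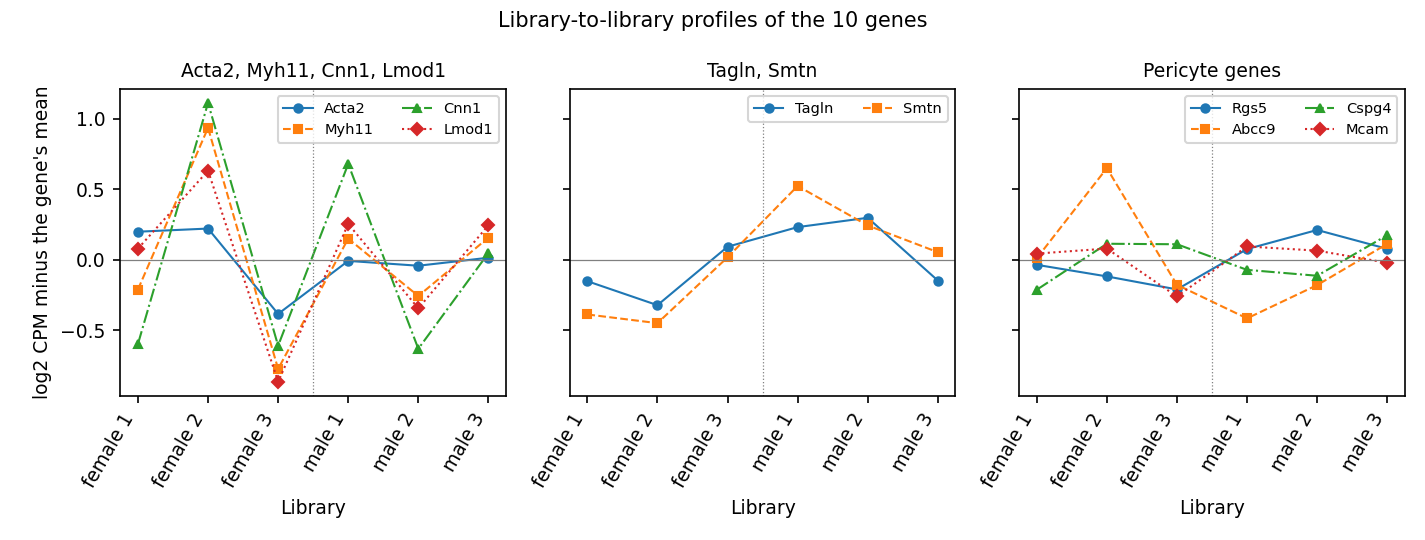
Log2 CPM of each gene minus its mean over the 6 libraries. Acta2, Myh11, Cnn1 and Lmod1 are all highest in female 2, Tagln and Smtn are lowest there, and the pericyte genes other than Abcc9 stay close to 0; lines link the points of a gene and carry no order.

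Markers of other cells moved with some of these genes. The 5 markers of myelinating Schwann cells, all detected in every library, summed to 10263 to 16008 TPM in females and 21416 to 27155 TPM in males, lowest in female 2 and highest in male 1, as was Smtn. As a description over 6 libraries that share their composition, Smtn had r = 0.96 and rho = 0.94 with this sum, a value reached by 2.20% of all genes. Tagln had r = 0.75 and Rgs5 0.65, values reached by 14.1% and 18.6% of all genes. Both Rgs5 and the Schwann sum were separated between the sexes, so this r for Rgs5 includes that gap. It was not computed with the sex means removed. In female 3, the female library with the highest Schwann sum, Rgs5 was at 63.6 CPM, against 71.7 and 67.8 CPM in females 1 and 2. In male 1, the male library with the highest sum, it was at 77.5 CPM, against 85.1 and 77.6 CPM in males 2 and 3. The 6 fibroblast markers, none of them at 0, summed to 3168 to 4077 TPM in females and 4417 to 5676 TPM in males, with r = 0.69 to Smtn, 0.57 to Rgs5 and 0.43 to Tagln, values reached by 11.9%, 18.3% and 25.4% of all genes. This sum also separated the sexes. From female 1 to female 3 it rose while Rgs5 fell. From male 1 to male 3 it rose as well, while Rgs5 rose from male 1 to male 2 and then fell to male 3. The part of Schwann cells or fibroblasts in the lower Smtn and Rgs5 of female nerves was not tested.

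The 8 endothelial markers, all detected, summed to 234 to 324 TPM in females and 251 to 282 TPM in males. Acta2 followed them most closely of the 10 genes, with r = 0.88 and rho = 0.89, reached by 0.983% of all genes. The 8 skeletal muscle markers summed to 1162 TPM in female 2 and 579 TPM in male 1, and to 8.01 to 22.2 TPM in the other 4 libraries. Cnn1, with r = 0.89 and rho = 0.60 to that sum, reached by 0.863% of all genes, was highest in the same 2 libraries. Myh11 had r = 0.69 and rho = 0.26 with it, reached by 4.76% of all genes. The 4 adipocyte markers summed to 730 to 2325 TPM in females, again highest in female 2, and 945 to 1555 TPM in males. Cspg4 had r = 0.83 and rho = 0.94 with them, and Myh11 0.70 and 0.60. These r values were reached by 2.96% and 7.82% of all genes. The part of surrounding muscle or fat in the high Myh11, Cnn1, Lmod1 and Abcc9 of female 2 was not tested. Few words of sequence are shared with other genes: 1.64% of the 31-base words of the main Abcc9 transcript, 1.5% of those of Acta2 and 1.06% of those of Myh11 occur in other annotated genes. The leading partner was Kctd20 for Abcc9, Gm6375 for Acta2 and the non-muscle myosin gene Myh9 for Myh11.

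Transcripts of Myh11 differ in known ways. A 21-base exon near the start of the coding sequence adds residues to a loop beside the ATP pocket of the myosin head and makes the faster SM-B form, found in visceral muscle and small arteries, while SM-A lacks it. A 39-base exon near the end carries a stop codon and gives the shorter SM2 tail. In GENCODE M21 (GRCm38, minus strand) the 21-base exon is exon 6 of 42 of Myh11-204, at chr16:14248580-14248600, and the 39-base exon is exon 41 of 42 of Myh11-202, at chr16:14198050-14198088. Both are shown because they separate the annotated forms; capitals mark the exon and lower case the 15 bases of the transcript on either side.
Myh11-204 exon 6: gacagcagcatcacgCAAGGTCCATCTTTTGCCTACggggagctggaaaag
Myh11-202 exon 41: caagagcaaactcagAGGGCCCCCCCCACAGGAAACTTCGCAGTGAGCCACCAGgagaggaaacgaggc

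Myh11-204, with the 21-base exon, held 23.5%, 26.3% and 17.0% of Myh11 TPM in females 1 to 3, against 5.56%, 8.73% and 12.0% in males 1 to 3. Every female library was above every male library, where 5.9% of transcripts with a mean share of at least 5% were separated in that direction and 11.9% in either. The means were 22.2% ± 4.80 in females and 8.77% ± 3.22 in males (SD, n = 3 each), a difference of 13.5 percentage points with an exact two-sided permutation p of 0.1, the smallest that 3 against 3 can give (adjusted p = 0.825 over the 33 member transcripts tested). Myh11-201, which lacks both exons, held 71.3% ± 8.52 in females and 84.7% ± 3.42 in males. Estimated reads for Myh11-204 were 400, 932 and 208 in females 1 to 3, against 124, 118 and 198 in males 1 to 3. These are Salmon's allocations between forms that share nearly all of their sequence and are annotated with different ends, so they do not count reads over the 21-base exon itself.

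**Figure D5:**
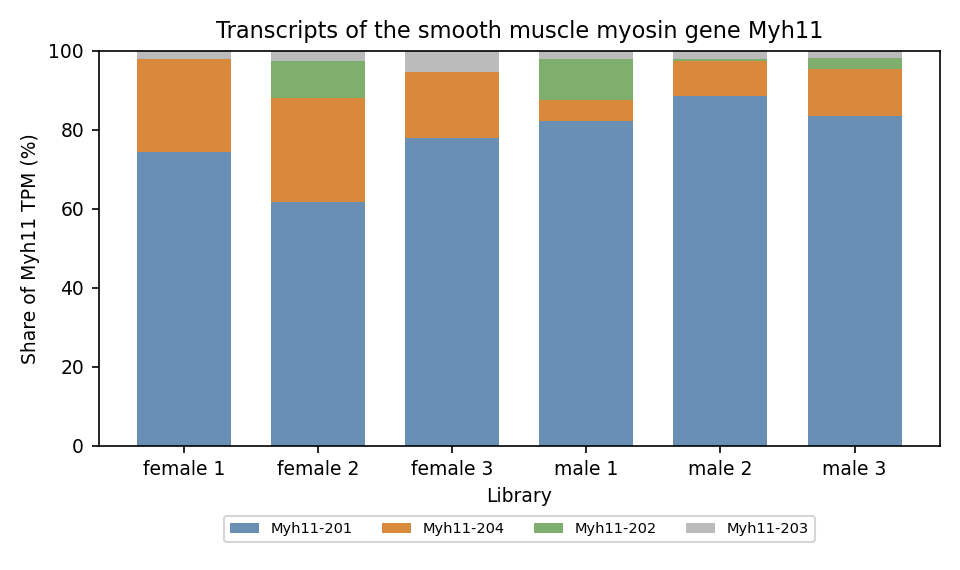
Share of each Myh11 transcript in the summed TPM of the gene, per library. Myh11-204 takes 17.0% to 26.3% in the female libraries and 5.56% to 12.0% in the male libraries.

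Myh11-202, the SM2 form, was assigned uneven shares, 0%, 9.54% and 0% of Myh11 TPM in females 1 to 3, against 10.2%, 0.595% and 2.64% in males 1 to 3. These too are allocations between forms that share most of their sequence, so a share of 0 does not show that SM2 was absent. The effective length of Myh11-202 also varied, from 0.96 to 1.43 of its annotated length over the libraries. Its share was highest in female 2 and male 1, the libraries with the highest skeletal muscle markers. The part of muscle in this pattern was not tested. Smtn was mainly the long coding form Smtn-202, with 66.1% ± 2.84 of Smtn TPM in females and 67.7% ± 2.16 in males (SD, n = 3 each). A short non-coding form, Smtn-206, held 26.7% ± 1.55 in females and 25.1% ± 1.54 in males. The short coding form Smtn-201 held 2.10% to 3.66% over the 6 libraries. Tagln-201 and Acta2-201 made up 94.0% to 96.4% and 95% to 99.4% of their genes. Of Cspg4 TPM, 34.9% ± 2.32 in females and 38.5% ± 11.7 in males was assigned to Cspg4-204, which is annotated as a retained intron.

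Promoter windows of 300 bases, 250 before and 50 after the RefSeq start, were given for 8 of the 10 genes (GRCm38.p6), and were searched on both strands for the CArG box and for the MCAT element CATTCC bound by TEAD factors. Myh11 and Tagln had no window and were not searched. None of the 8 windows held an exact CArG box, which 1.64% of 32544 mouse promoter windows hold. Allowing 1 base off, Acta2, Lmod1 and Cspg4 held such a box, as do 21.1% of all windows. CATTCC or its reverse complement was in the windows of Acta2, Lmod1, Smtn and Abcc9, as in 14.6% of all windows. The windows of Cnn1, Rgs5 and Mcam held neither. Those of 3 contractile genes, Acta2, Lmod1 and Smtn, are shown because they hold the matches, 5′ to 3′ on the gene's strand, with capitals marking each CArG-like box and each MCAT element. They lie at chr19:34255324-34255623 (minus strand) for Acta2, chr1:135324563-135324862 (plus strand) for Lmod1 and chr11:3539243-3539542 (minus strand) for Smtn.
Acta2: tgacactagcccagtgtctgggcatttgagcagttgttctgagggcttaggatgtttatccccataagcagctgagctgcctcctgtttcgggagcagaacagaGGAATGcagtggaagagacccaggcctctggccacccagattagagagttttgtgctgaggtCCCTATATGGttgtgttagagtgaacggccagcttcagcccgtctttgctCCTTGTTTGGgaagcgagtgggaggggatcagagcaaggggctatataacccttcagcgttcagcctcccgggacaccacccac
Lmod1: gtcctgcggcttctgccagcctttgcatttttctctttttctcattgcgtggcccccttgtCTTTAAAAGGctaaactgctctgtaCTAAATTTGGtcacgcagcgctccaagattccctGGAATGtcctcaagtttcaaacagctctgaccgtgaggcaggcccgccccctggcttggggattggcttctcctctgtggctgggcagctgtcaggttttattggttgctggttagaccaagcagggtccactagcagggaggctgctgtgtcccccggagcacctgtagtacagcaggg
Smtn: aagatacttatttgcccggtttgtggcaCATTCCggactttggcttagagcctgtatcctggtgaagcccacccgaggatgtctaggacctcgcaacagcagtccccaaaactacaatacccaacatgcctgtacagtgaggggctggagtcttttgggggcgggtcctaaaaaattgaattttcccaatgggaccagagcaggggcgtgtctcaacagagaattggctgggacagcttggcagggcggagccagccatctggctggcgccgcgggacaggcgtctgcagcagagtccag

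The CArG-like boxes of Acta2 begin 84 and 34 bases before the start and its MCAT element 146 bases before it. In Lmod1 the boxes begin 189 and 164 bases before the start and the MCAT element 130 bases before it. In Smtn the single MCAT element begins 222 bases before the start. A match describes these letters and is not evidence of binding.

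Of 16 further contractile genes none passed the threshold in either direction, with a median log2 fold change of 0.04. The most abundant were the tropomyosin gene Tpm1 (228 TPM in females and 209 TPM in males on average), Pdlim7 (110 and 126 TPM) and the caldesmon gene Cald1 (124 and 112 TPM). Of the 16, 5 had r over 0.8 with Myh11, where 2.69% of all genes did: the enteric actin Actg2 (0.96), the muscle filament gene Des (0.92), Synpo2 (0.94), the myosin phosphatase inhibitor Ppp1r14a (0.91) and Aoc3 (0.82). All 5 were highest in female 2. Des was at 51.7 TPM in female 2 and 12.5 TPM in male 1, the libraries with the highest skeletal muscle markers, and at 4.58 to 7.08 TPM in the other 4. Aoc3 was at 13.8 TPM in female 2, the library with the highest adipocyte markers, and at 4.48 to 8.12 TPM in the others. The part of muscle or fat in these values was not tested. Another 2 had r over 0.8 with Smtn, where 11.3% did: the myosin light chain Myl9 (0.996) and Pdlim7 (0.83). Myl9 was at 72.9, 70.1 and 93.2 TPM in females 1 to 3, against 124, 115 and 101 TPM in males 1 to 3. Its libraries did not overlap between the sexes, with a log2 fold change of -0.54 (SE 0.15, edgeR adjusted p = 0.191). By CPM, 1 of the 16 genes was separated in this way, where 21.2% of all genes were in either direction and 11.5% lower in female nerves.

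Of 9 SRF and myocardin pathway factors tested, none passed (median log2 fold change 0.02). Srf was at 28.3 ± 2.53 TPM in females and 27.7 ± 2.20 TPM in males. The TEAD factor gene Tead1 averaged 40.1 and 43.3 TPM, and Foxo4, a forkhead factor, 24.1 and 29.6 TPM with a log2 fold change of -0.32 (edgeR adjusted p = 0.207). Myocd, the myocardin gene, had 7 to 50 estimated reads per library, too few to follow across libraries. Of 14 further pericyte genes none passed (median 0.04). Pdgfrb, the receptor that recruits pericytes, was at 28.3 ± 0.286 TPM in females and 32.2 ± 1.28 TPM in males, with a log2 fold change of -0.17 (SE 0.07, edgeR adjusted p = 0.318). The matrix protein gene Vtn averaged 40.2 and 51.8 TPM in female and male nerves, and the aminopeptidase gene Anpep 42.5 and 40.7 TPM. Notch3, a receptor of arterial mural cells, had r = 0.87 and Ndufa4l2 0.88 with Myh11, while Pdgfrb and Vtn had r = 0.88 and 0.93 with Smtn. These 2 of 14 with Smtn are near the 11.3% of all genes, and with Rgs5 0 of 14 had r over 0.8, where 1.99% of all genes did.

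Among the 14744 other genes with a mean of at least 1 CPM, those most like the mean profile of the 6 contractile genes included Zscan20 (r = 0.99), Mlycd (0.99), the cardiac actin gene Actc1 (0.97) and Macrod1 (0.97), over 6 libraries. Those most like the mean profile of the 4 pericyte genes included Sart3, Trim65, Ankle2 and Asb13 (0.98 each). None of these 8 genes passed the threshold between the sexes. They are the top of many correlations over only 6 libraries. The contractile profile was highest in female 2 and male 1 (0.35 and 0.30 in log2 units around its mean). These are the libraries with the highest skeletal muscle markers, and Actc1 averaged only 1.34 CPM. The part of muscle in that list was not tested. Each member counts toward its own profile, a mean of log2 values not scaled for spread, so members that vary more weigh more. In CPM the coefficient of variation was 55.7% for Cnn1 and 42.7% for Myh11, against 25.7% for Smtn and 16.8% for Tagln. For Abcc9 it was 28.0%, against 8.70% for Mcam, 10.51% for Rgs5 and 10.54% for Cspg4. Among the members, r with the contractile profile was 0.93 for Cnn1 and 0.92 for Myh11, but 0.06 for Smtn and -0.28 for Tagln. With the pericyte profile it was 0.87 for Abcc9, but 0.49 for Mcam, 0.42 for Cspg4 and 0.10 for Rgs5. The contractile gene Myh11 also had 0.87 with it, so that profile does not stand for the pericyte genes as a set.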

How the data were processed

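For each of 140789 transcripts the authors deposited, in each library, the estimated count (NumReads) and the TPM, with length and effective length. Among tools, the submitters' processing notes list Salmon 1.5.2, Trimmomatic 0.39 and MultiQC 1.9. The sources name no genome build or annotation release. Libraries were stranded and poly-A selected, per the labels' protocols. Effective lengths in the deposited tables were 0.70 to 0.75 of the annotated length for Rgs5-201 and 1.32 to 1.40 for Myh11-201, which bears on TPM and not on CPM.

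Transcript values were summed per gene and estimated counts rounded. The test was edgeR 4.0.16 (filterByExpr, TMM, robust quasi-likelihood, no covariate) over 19129 genes, with Benjamini-Hochberg adjustment, and was tested on simulated counts. DESeq2 1.42.0 and limma 3.58.1 were alternatives. Log2 fold changes are female minus male. Correlations used log2 CPM with a prior count of 1. Each library is its own pool of animals, as the labels describe. No 2 libraries agreed within sampling noise (chi-square per degree of freedom of at least 26.3). A count of 0 allows up to 3 reads, at most 0.0543 CPM, for counting error only.

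Members and lists were chosen with earlier results of these data known. The text names all 10 members, genes from the 5 most like each mean profile at a mean of at least 1 CPM, and the 3 most abundant genes of each further list. Other genes named, and the subset of Acta2, Myh11, Cnn1 and Lmod1, were chosen after their values were seen. Some genes that this rule selects are not reported here.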

Additional observations from a re-analysis of the deposited data

How the results depend on the processing

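No member was called under 16 of 17 alternatives; DESeq2 called 1, Smtn (log2 fold change -0.55, adjusted p 0.0276). Smtn, Tagln and Rgs5 were below 0 under every alternative, and Smtn ran from -0.70 to -0.32. Genes higher and lower in female nerves numbered 3 and 18 as reported, 44 and 147 with no low-count filter, 233 and 638 with DESeq2, 1 and 10 on log2(TPM + 1) and 0 and 3 with the replicate block. The number higher was 6 with limma-voom and 6 without female 2 and male 1. Leaving out 1 library gave 0 to 17 higher and 4 to 188 lower, with 188 without female 3, 7 and 10 without females 1 and 2, and 12, 4 and 6 without males 1, 2 and 3.

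Same-numbered libraries did not deviate together: they correlated at -0.09, -0.17 and 0.01 in their deviations from the group means. The highest value of any pair was 0.13, for female 2 with male 1. With 3 libraries per sex, this check cannot tell whether same-numbered libraries shared a batch. With the block no member was called, and Myh11 and Cnn1 had -0.0444 and -0.10.

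Uncalled members near 0 changed sign. Myh11 had -0.0459 with limma-voom, -0.0010 on log2(TPM + 1), -0.0247 on log2(TPM + 0.1) and -0.43 without female 2 and male 1. Cnn1 had -0.12 with limma-voom, -0.0111 on log2(TPM + 0.1) and -0.35 without those libraries. Cspg4 had -0.0379 and -0.0415 on log2(TPM + 1) and log2(TPM + 0.1) and -0.0800 without those libraries, where Acta2 had -0.0494 and Abcc9 -0.0539. Leaving out 1 library gave -0.0573 to 0.22 for Acta2, -0.50 to 0.44 for Myh11, -0.74 to 0.47 for Cnn1, -0.40 to 0.30 for Lmod1, -0.0498 to 0.11 for Cspg4 and -0.15 to 0.0140 for Mcam. The contractile median was -0.31 without female 2 and male 1, and -0.43 to 0.26 with 1 library left out. The cause was not tested. Cnn1 had 84 to 320 and Lmod1 129 to 327 reads per library.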
